A study of Mus musculus with 8 samples.

Results

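The genes described here are 9 genes of meiotic chromosomes and 1 testis transcript, 4930502E18Rik, followed through WT prostate, prostatic intraepithelial neoplasia (PIN) and prostatic adenocarcinoma (PCa). They were chosen by symbol, as 10 of the 27036 genes of the count table: Sycp1, Sycp2, Sycp3, Syce2, Hormad1, Stag3, Smc1b, Rec8, Spo11 and 4930502E18Rik. The choice used results of these same libraries, since 4930502E18Rik was picked as a transcript with no reads in WT. The members' values in PCa are therefore given as a description without p-values. RNA was taken from fresh prostate tissue of mice and sequenced in bulk, with 3 WT, 3 PIN and 2 PCa libraries. PIN and PCa came from transgenic mice with Osr1 Cre on a mixed C57BL/6 and 129S1/SvImJ background. In these mice 1 Rosa26 allele carries a human transgene and the other the mTmG reporter, and both are recombined where Osr1-Cre has been active, in the lineage of the Osr1 progenitors and not in every prostate cell. The controls are labelled WT in the series, and for the bulk libraries the study gives these WT mice as R26 mTmG/+:Osr1 Cre/+, so they carried the reporter and Cre too, without the transgene. Neither the age of each bulk sample nor whether each library came from its own animal is stated, so any p-value measures the spread between these libraries.

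Meiosis is the pair of divisions by which germ cells halve their chromosomes. SPO11 cuts the DNA of the paired chromosomes to start recombination. SYCP2, SYCP3 and HORMAD1 build the axis of each chromosome, SYCP1 and SYCE2 lie in the synaptonemal complex that zips homologous axes together, and STAG3, SMC1B and REC8 are subunits of the cohesin rings that hold sister chromatids in meiosis. REC8 takes the place that RAD21 has in dividing body cells, SMC1B that of SMC1A, and STAG3 that of STAG1 and STAG2. 4930502E18Rik is a synonym of Ct55 in RefSeq, which names cancer/testis antigen 55, of a class of genes read in testis and in some cancers but in few other adult tissues.

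Many of these genes are kept off in body cells by CpG methylation and by a repressor complex whose DNA-binding members include E2F6 and the partners MGA and MAX, so their promoters are shown before the counts. RefSeq promoter windows (GRCm38.p6, from 250 bases before to 50 bases after the start) were found for 9 of the 10 members. The windows below are those of the transcript at 0 in WT, of the member with no read anywhere, and of Sycp3, Syce2 and Rec8. Each is written 5′ to 3′ on the gene's strand, with the capitals marking TCCCGC, the core of the E2F6 site, or its reverse complement GCGGGA, and CACGTG, the E-box that MAX partners can bind.
4930502E18Rik (chrX:53724581-53724880, plus strand): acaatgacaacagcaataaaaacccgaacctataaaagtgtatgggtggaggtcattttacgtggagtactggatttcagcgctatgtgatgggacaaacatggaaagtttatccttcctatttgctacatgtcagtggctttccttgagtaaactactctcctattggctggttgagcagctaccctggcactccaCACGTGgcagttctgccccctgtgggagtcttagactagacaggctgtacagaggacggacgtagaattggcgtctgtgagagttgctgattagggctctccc
Hormad1 (chr3:95559427-95559726, plus strand): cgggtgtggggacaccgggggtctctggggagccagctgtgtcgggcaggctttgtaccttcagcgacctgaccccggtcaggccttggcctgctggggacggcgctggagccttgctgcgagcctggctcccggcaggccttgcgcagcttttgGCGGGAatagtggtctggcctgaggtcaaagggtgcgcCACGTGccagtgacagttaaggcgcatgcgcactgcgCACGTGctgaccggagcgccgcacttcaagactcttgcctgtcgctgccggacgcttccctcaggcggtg
Sycp3 (chr10:88459337-88459636, plus strand): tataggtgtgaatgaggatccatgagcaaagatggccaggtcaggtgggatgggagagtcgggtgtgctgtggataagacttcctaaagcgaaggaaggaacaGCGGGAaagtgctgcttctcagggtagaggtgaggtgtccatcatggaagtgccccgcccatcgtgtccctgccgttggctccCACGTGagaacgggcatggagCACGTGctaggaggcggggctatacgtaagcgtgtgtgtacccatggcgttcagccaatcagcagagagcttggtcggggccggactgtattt
Syce2 (chr8:84872008-84872307, plus strand): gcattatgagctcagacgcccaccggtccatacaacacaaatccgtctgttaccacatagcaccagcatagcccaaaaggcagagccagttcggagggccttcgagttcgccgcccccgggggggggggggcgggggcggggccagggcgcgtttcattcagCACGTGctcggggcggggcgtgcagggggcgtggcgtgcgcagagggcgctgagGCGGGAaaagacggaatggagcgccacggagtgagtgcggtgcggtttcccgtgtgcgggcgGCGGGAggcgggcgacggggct
Rec8 (chr14:55617916-55618215, plus strand): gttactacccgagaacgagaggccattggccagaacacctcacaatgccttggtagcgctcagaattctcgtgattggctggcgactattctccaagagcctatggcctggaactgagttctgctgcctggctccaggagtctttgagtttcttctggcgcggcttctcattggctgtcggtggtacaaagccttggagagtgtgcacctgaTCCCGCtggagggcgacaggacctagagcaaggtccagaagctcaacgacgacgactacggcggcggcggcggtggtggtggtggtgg

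TCCCGC, read on both strands, was found in 7 of the 9 members with a window (Sycp1, Sycp3, Syce2, Hormad1, Stag3, Smc1b and Rec8), and in 20% of the 32851 windows of all genes. CACGTG, which reads the same on both strands, was found in 6 of 9 (4930502E18Rik, Sycp1, Sycp3, Syce2, Hormad1 and Stag3), and in 7.15% of all windows. No matches overlapped in the windows printed. Both motifs were found together in 5 members, and neither was found in Sycp2. The members' windows were also rich in CG dinucleotides, with 15 or more in 7 of 9 against a median of 7 over all windows, and in windows with 15 or more the shares are higher, 45.4% for TCCCGC and 11.3% for CACGTG. The 2 members with fewer were 4930502E18Rik, with 7, and Sycp2, with 10. A match is a run of letters and was not tested as a binding site.

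**Figure D1:**
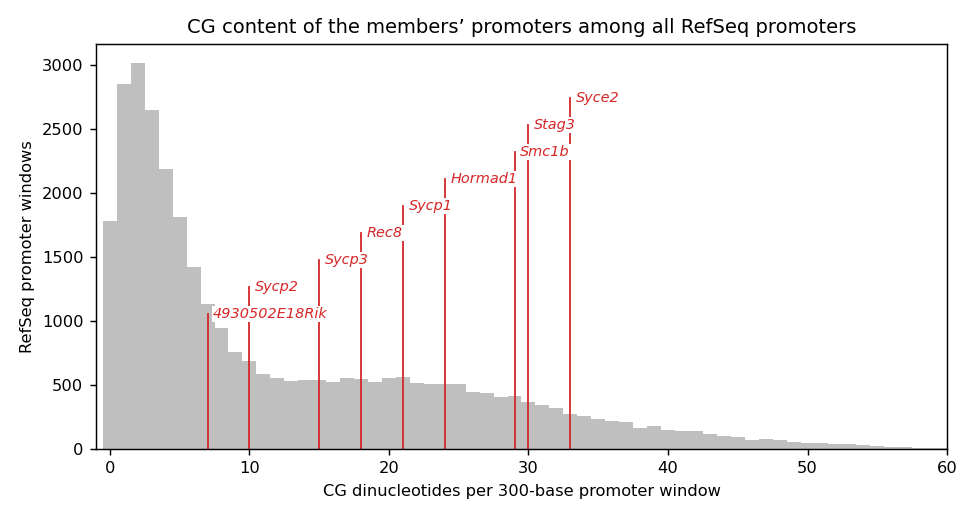
The horizontal axis gives CG dinucleotides per 300-base window (GRCm38.p6) and the grey bars count RefSeq windows of all genes, with a red line for each of the 9 members (the richer window where a gene has 2). 4930502E18Rik stands at 7, the median of all windows, and Syce2 farthest right, at 33.

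Total counts per library ran from 21751803 to 29730420, and 14034 genes were tested, those over 1 CPM (reads per TMM-adjusted library size) in 2 libraries or more. A count of 0 in 1 library allows up to 0.096 to 0.148 CPM (3 counts, for counting error only). One WT and PIN transcript, 9530053A07Rik, took 13.1% to 22.1% of those libraries and 0.0114% and 0.00832% of PCa 1 and PCa 2. The numbers in the labels fall into 3 series, WT 1 alone, WT 2 with WT 3, and all PIN and PCa libraries, which, where they mark batches, cannot be told apart from the condition against WT. The prostate luminal genes, summed, stood at 46700 to 88100 CPM in WT and PIN and at 2170 and 2230 in PCa. This sum does not stand for each gene. Of the 8 luminal genes, 3 lay below all WT and PIN libraries in each tumor, 1 lay above them in both, and 2 were called lower. Stromal genes summed to 1570 to 4760 CPM in WT and PIN and to 147 and 59.1 in PCa. In bulk tissue, fewer cells of a type and less RNA per cell cannot be told apart. The leukocyte and basal sums separated the tumors, with leukocyte genes at 128 CPM in PCa 1 and 18.6 in PCa 2 against 24.1 to 77.7 elsewhere, and basal genes at 601 and 27.3 against 167 to 387. Seminal vesicle genes summed to 15900 CPM in WT 1, 0.634 and 0.768 in WT 2 and 3, 43.9 to 88.6 in PIN, and 3820 and 879 in PCa.

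Only part of the set was expressed in the tumors. Both tumors stood above all 6 WT and PIN libraries for 3 members, 4930502E18Rik, Spo11 and Syce2, as they did for 13.2% of all tested genes (27.5% for PCa 1 and 27.7% for PCa 2 taken alone). Sycp2 and Sycp3 had reads in PCa 1 and hardly any in PCa 2. Rec8 was well expressed in WT and PIN and nearly absent from PCa 1, Sycp1 was highest in a WT library, Stag3 and Smc1b stayed at 16 reads or fewer, and Hormad1 had 0 in all 8. The name of meiotic genes in tumors thus does not describe most of the set, and nothing further is read from the 3, since the choice of members used values of these libraries.

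**Figure D2:**
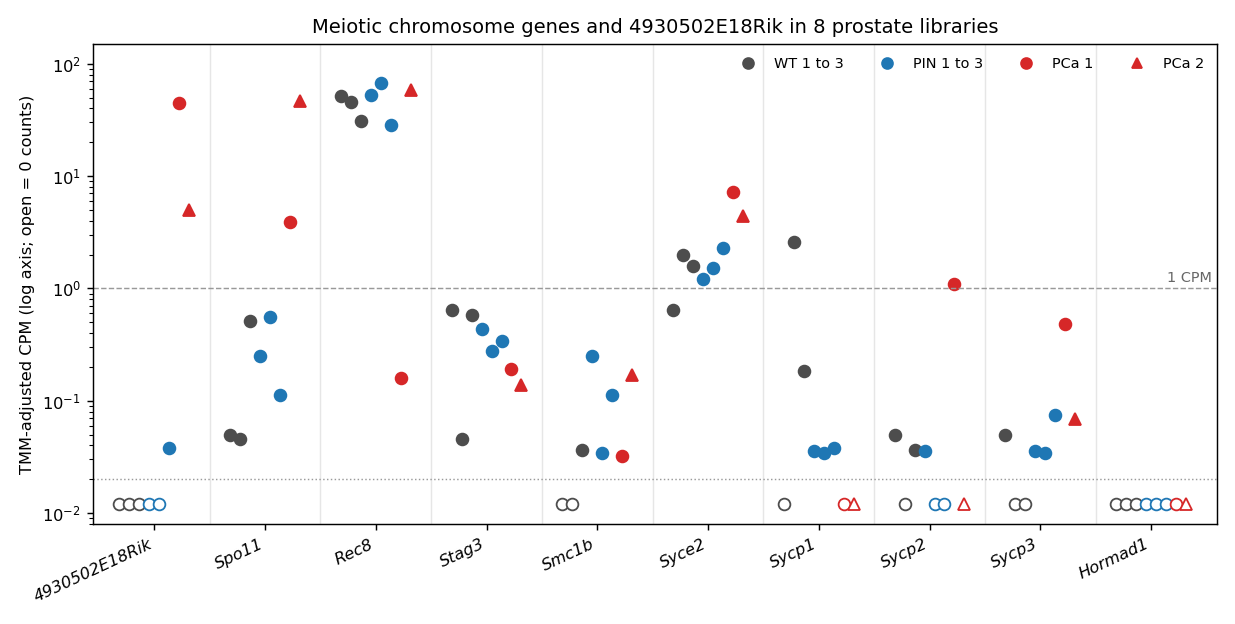
TMM-adjusted CPM (log axis) of the 10 members in each library, grey for WT, blue for PIN, red circles for PCa 1 and red triangles for PCa 2, with open symbols at the bottom for 0 counts and a dashed line at 1 CPM. 4930502E18Rik, Spo11 and Syce2 lie higher in both PCa libraries than in WT and PIN, while Rec8 in PCa 1 lies at 0.160 CPM, far under its other 7 libraries.

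4930502E18Rik (mm9 chrX:51028003-51041618, plus strand) had 0 reads in WT 1, 2 and 3 and in PIN 1 and 2, and 1 in PIN 3. PCa 1 held 1413 reads, 45.2 CPM, and PCa 2 held 145, 4.95 CPM. The PCa libraries did not overlap with the others, and they differed from each other 9.13-fold. Only 0.15% of tested genes (21 of 14034) had no read in any WT library, which is one of the values by which this gene was chosen. Against a limit of 3 counts over the whole WT group, 0.0431 CPM, PCa 1 was at least 1050-fold higher and PCa 2 at least 115-fold higher. Against the single PIN read, the PCa to PIN ratio was 2150 with reads pooled by group (95% counting interval 385 to 84900). That interval covers counting error only and not the 9.13-fold spread between the tumors. Nothing is read from it, since the gene was chosen with values of these libraries. The fitted log2 fold change was 12.39 ± 1.72 (SE) against WT and 10.56 ± 1.49 against PIN, values that rest on the prior count the fit adds to zeros.

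The genes around 4930502E18Rik had few reads. Of the 10 other genes of the table that start within 300 kb, Etd and Gm14597 had no read in any library, and 1700013H16Rik and Zfp36l3 had at most 1. AW822252, on the opposite strand with its lower coordinate 18.8 kb below that of 4930502E18Rik, was read 19 times in PCa 1, 15 times in PCa 2 and no more than once elsewhere. Xlr had 16 reads in PCa 1, 1 in PCa 2 and 1 to 10 elsewhere, and Gm15482 had 4 in PCa 1 and at most 1 elsewhere. The retrotransposon-derived genes Cxx1a, Cxx1b and Cxx1c lay at 0.224 to 1.54 CPM in PCa and 0.408 to 2.97 CPM in WT and PIN, so that AW822252 was the one neighbour with both tumors above all other libraries.

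The 5 tested genes whose levels over the 8 libraries were most like those of 4930502E18Rik were S100a8, Spp1, Calml3, Lmod2 and Aurka, with root-mean-square differences of 0.15, 0.39, 0.42, 0.56 and 0.57 in centred log2(CPM + 0.5). S100a8, a calcium-binding protein abundant in neutrophils, reached 36.2 CPM in the first tumor and 5.50 CPM in the second, and elsewhere no more than 0.0987. Lmod2, an actin-filament protein of heart and skeletal muscle, likewise had 0 reads in all WT and PIN libraries, with 768 and 38 in PCa 1 and PCa 2. Aurka, the mitotic Aurora A kinase, was at 1.09 to 3.76 CPM in WT and PIN and at 141 and 11.5 in PCa.

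Spo11 (mm9 chr2:172803201-172819077, plus strand), which cuts DNA at the start of meiotic recombination, had 1, 1 and 14 reads in WT and 7, 16 and 3 in PIN, at most 0.551 CPM. PCa 1 had 121 reads, 3.87 CPM, and PCa 2 had 1358, 46.4 CPM. The order of the tumors was thus the reverse of that for 4930502E18Rik, with PCa 2 12-fold higher than PCa 1. The fitted log2 fold change was 6.86 ± 1.39 against WT and 6.34 ± 1.35 against PIN. No other gene of the table lies within 2 kb of it.

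The other genes of meiotic DNA cutting differed in their order between the tumors. Tex15 had 11 reads, 0.352 CPM, in PCa 1 and 2853, 97.4 CPM, in PCa 2, the tumor order of Spo11, but with PCa 1 below its WT and PIN levels. Rec114 (2410076I21Rik in the table), a partner of the cutting machinery, had 3 reads, 0.096 CPM, in PCa 1 and 27, 0.922 CPM, in PCa 2, against 0.0366 to 0.252 CPM elsewhere. PCa 2 was thus above all WT and PIN libraries and 9.61-fold above PCa 1, from 3 reads there. TOP6BL (Gm960 in the table), the second subunit of the cutting enzyme, had 93 reads, 2.98 CPM, in PCa 1 and 14, 0.478 CPM, in PCa 2, against 0 to 0.310 CPM elsewhere. Both tumors lay above all other libraries for Gm960, and PCa 1, the tumor with less Spo11, was the higher. Prdm9, which marks the places to be cut, was at 4.39, 4.21 and 8.92 CPM in WT, at 8.09, 10.2 and 7.42 in PIN and at 7.65 and 8.26 in PCa (log2 fold change 0.45 ± 0.41, adjusted p = 0.522 by edgeR's quasi-likelihood F-test, Benjamini-Hochberg). Mei1, another factor needed for the cuts, had 0 and 2 reads in PCa, and Mei4 and Ccdc36 (IHO1) had none there. Of the 7 factors of double-strand breaks with a row, 2 (Prdm9 and Tex15) were tested and 0 were called in any comparison, with a median log2 fold change of 0.64 in PCa against WT and 0.32 against PIN.

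Rec8 (mm9 chr14:56236874-56244232, plus strand), the meiotic kleisin that closes the cohesin ring, was the one member with steady expression in normal prostate. It stood at 52.1, 45.4 and 30.8 CPM in WT and at 52.3, 67.9 and 28.4 in PIN. PCa 2 had 59.0 CPM, inside that range, and PCa 1 had 0.160 CPM, from 5 reads. PCa 1 was thus 177-fold under the lowest of the other 7 libraries and 369-fold under PCa 2, and it lay below all WT and PIN libraries, as it did for 27.8% of tested genes. The fitted log2 fold changes were 0.21 ± 1.26 for PIN against WT, -0.53 ± 1.43 for PCa against WT and -0.74 ± 1.44 for PCa against PIN. These PCa values describe neither tumor, since without PCa 1 the log2 fold changes were 0.48 against WT and 0.27 against PIN, and without PCa 2 they were -8.00 and -8.21. Ipo4, whose end lies beside that of Rec8 without overlap, was at 66.6 to 103 CPM in WT and PIN and at 41.4 and 59.3 CPM in PCa 1 and PCa 2, so that both tumors lay below all other libraries and PCa 1 was the lowest. The part of this in the level of Rec8 was not tested.

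On the TPM scale, which divides reads by exon length, Rec8 was at 59.8%, 36.6% and 32.4% of the level of Rad21, the kleisin of dividing body cells, in WT. In PIN it was at 44.2%, 72.1% and 29.7% and in PCa 2 at 23.0%, while in PCa 1 it was at 0.0805%. Rad21 itself had 101 to 148 TPM in WT and PIN and 278 and 372 TPM in PCa 1 and PCa 2. The other meiotic cohesin subunits were at no more than traces beside their counterparts. Smc1b (mm9 chr15:84895121-84962387, minus strand) had 0, 0 and 1 reads in WT, 7, 1 and 3 in PIN and 1 and 5 in PCa, at most 0.261% of the Smc1a level. Stag3 (mm9 chr5:138721468-138753621, plus strand) had 13, 1 and 16 reads in WT, 12, 8 and 9 in PIN and 6 and 4 in PCa, at 0.088% to 2.05% of the Stag1 level and 0.0153% to 0.616% of that of Stag2. In CPM, both tumors lay inside the WT range for Stag3 (0.0453 to 0.642 CPM) and below the lowest PIN library (0.275 CPM), at 0.192 and 0.137 CPM, and for Smc1b the PCa range overlapped those of WT and PIN.

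**Figure D3:**
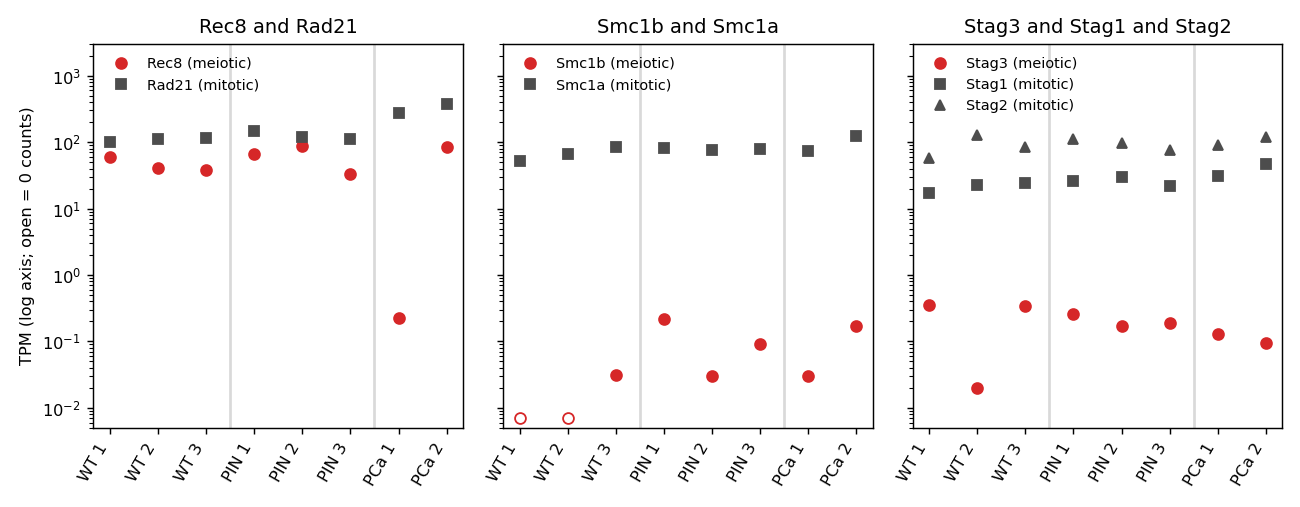
Each panel gives TPM (log axis) in the 8 libraries for a meiotic cohesin subunit in red and its mitotic counterparts in grey, with open red circles at the bottom for 0 counts. Rec8 lies within reach of Rad21 in every library but PCa 1, at 0.223 TPM, and Smc1b and Stag3 lie far below their counterparts in all 8.

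Syce2 (mm9 chr8:87396010-87412120, plus strand), part of the central element of the synaptonemal complex, was read in every library. It stood at 0.642, 1.99 and 1.57 CPM in WT, at 1.22, 1.51 and 2.30 in PIN and at 7.26 and 4.37 in PCa 1 and PCa 2. The PCa libraries lay above all others, as 17.5% of tested genes did against WT and 20.8% against PIN. They differed from each other 1.66-fold, the smallest gap among the 3 members that were high in both. The fitted log2 fold change was 2.05 ± 0.59 against WT and 1.80 ± 0.58 against PIN. Neither was called by edgeR, and both were called by DESeq2 (log2 fold changes 2.07 and 1.81). The 3′ end of Syce2 overlaps Gcdh on the opposite strand by 1829 bases, and Gcdh was at 64.6 to 75.3 CPM in WT and PIN and at 64.9 and 57.8 in PCa. Whether the counting used strand is not given in the sources used here.

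The proteins that form the axis and the transverse filament were close to unread. Sycp2 (mm9 chr2:178079998-178142390, minus strand) was read 34 times in PCa 1, at 1.09 CPM, not at all in PCa 2, and no more than once in each WT or PIN library. Sycp3 (mm9 chr10:87922314-87935981, plus strand) had 15 reads, 0.480 CPM, in PCa 1 and 2 in PCa 2, beside 0 to 2 elsewhere. It lies wholly inside Chpt1 on the opposite strand. Chpt1 was at 43.1 to 77.5 CPM in WT and PIN and at 60.2 and 109 CPM in PCa 1 and PCa 2. The part of Chpt1 in the reads of Sycp3 was not tested. Sycp1 (mm9 chr3:102622422-102740023, minus strand) had 57 reads, 2.58 CPM, in WT 2, 5 in WT 3, 1 in each PIN library and 0 in WT 1 and both tumors. Hormad1 (mm9 chr3:95363599-95391593, plus strand) had 0 reads in all 8 libraries.

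In all, 4 of the 10 members passed the filter on low counts, as did 51.9% of the genes of the table, and 4930502E18Rik and Spo11 did so only through the PCa libraries. Between PIN and WT, 0% of the 14034 tested genes passed edgeR's quasi-likelihood test, where a call took a Benjamini-Hochberg adjusted p under 0.05 and a log2 fold change beyond 1 in either direction, with 492 genes (3.51%) under 0.05 unadjusted and 39 called by DESeq2. Of the members, 0 were called, and Syce2, Rec8 and Spo11 had log2 fold changes of 0.26 ± 0.53, 0.21 ± 1.26 and 0.52 ± 1.22, each with an adjusted p of 1 in edgeR. Between PCa and WT, 8.54% of tested genes were called (4.35% higher and 4.18% lower), and between PCa and PIN 5.72% (2.55% higher and 3.17% lower). The members called were 4930502E18Rik and Spo11, both higher, in each of these comparisons, which share the PCa libraries, and nothing is read from that count, because the choice of members used it.

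The members' adjusted p-values crossed the threshold when libraries were left out, which also costs the fit a degree of freedom. Calls kept or lost are a description only, since the choice of members used values of these libraries. Against WT, the call of 4930502E18Rik was lost without WT 3 or without PIN 3, with a log2 fold change of 12.39 in both. The call of Spo11 was lost without WT 1, WT 2, WT 3, PIN 1 or PIN 3, with log2 fold changes of 6.44, 6.41, 8.92, 6.87 and 6.86. Against PIN, 4930502E18Rik was not called without PIN 1, 2 or 3 (10.12, 10.09 and 12.39), nor Spo11 without WT 1 or 3 (6.34 in both) or PIN 1, 2 or 3 (6.23, 7.07 and 5.95). Without either PCa library, both genes no longer passed the filter.

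The tumors had different members on top. Per exon length, the order in PCa 1 was 4930502E18Rik (122 TPM), Syce2 (14.2 TPM), Spo11 (3.79 TPM), Sycp3 (1.46 TPM) and Sycp2 (0.699 TPM), with Rec8 at 0.223 TPM. In PCa 2 it was Rec8 (85.5 TPM), Spo11 (47.1 TPM), 4930502E18Rik (13.8 TPM) and Syce2 (8.84 TPM), with no other member above 0.215 TPM. In WT and PIN, Rec8 led in every library with 33.6 to 86.5 TPM and Syce2 came second with 1.04 to 3.80 TPM. Each tumor is 1 library, so these orders have no replicate.

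Some germ line genes outside the 10 also differed between the tumors. By a rule set after the values were seen, a gene with at least 20 reads in some library was taken as high in 1 tumor where that tumor had at least 5 times the CPM of every other library. Of the 15633 genes with enough reads, 3.23% were high in PCa 1 alone and 2.03% in PCa 2 alone. Among 59 genes of the germ line and testis lists it was 4 for PCa 1 (6.78%) and 1 for PCa 2 (1.69%). In PCa 1 these were Gm960, Piwil4, which silences transposons in fetal germ cells (13.2 CPM, 414 reads), Tex19.1, a germ cell and placenta gene (2.88 CPM, 90 reads), and Ddx4, the germ cell helicase (1.70 CPM, 53 reads). In PCa 2 it was Tdrd1, a partner of the germ line Piwi proteins, with 182 reads, 6.21 CPM, against 0 in PCa 1 and at most 2 elsewhere.

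Of the same 59 genes, 1 (Tex15) was low in PCa 1 alone and 2 (1700123I01Rik and Wt1) in PCa 2 alone. Low meant at most 1/5 of the CPM of every other library, with at least 20 reads in each of those. Tex15, a germ cell gene needed for meiotic recombination and for transposon silencing, was at 24.4, 30.3 and 27.7 CPM in WT, at 33.1, 28.4 and 26.5 in PIN and at 97.4 in PCa 2. PCa 1 had 0.352 CPM, 69.4-fold under the lowest of the rest. Of all genes with enough reads, 0.595% were low in this way in PCa 1, Rec8 among them, and 3.21% in PCa 2. 1700123I01Rik, which holds meiotic telomeres to the nuclear envelope as MAJIN, had 0 reads in PCa 2, 22 reads, 0.704 CPM, in PCa 1 and 0.863 to 6.34 CPM in WT and PIN. The fitted log2 fold change of Tex15 was 0.84 ± 1.35 in PCa against WT (adjusted p = 0.732, edgeR's quasi-likelihood F-test, Benjamini-Hochberg), an average of 2 opposite values. Over all tested genes, 14.4% differed at least 4-fold between the tumors, 10.4% with PCa 1 higher and 3.97% with PCa 2 higher.

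**Figure D4:**
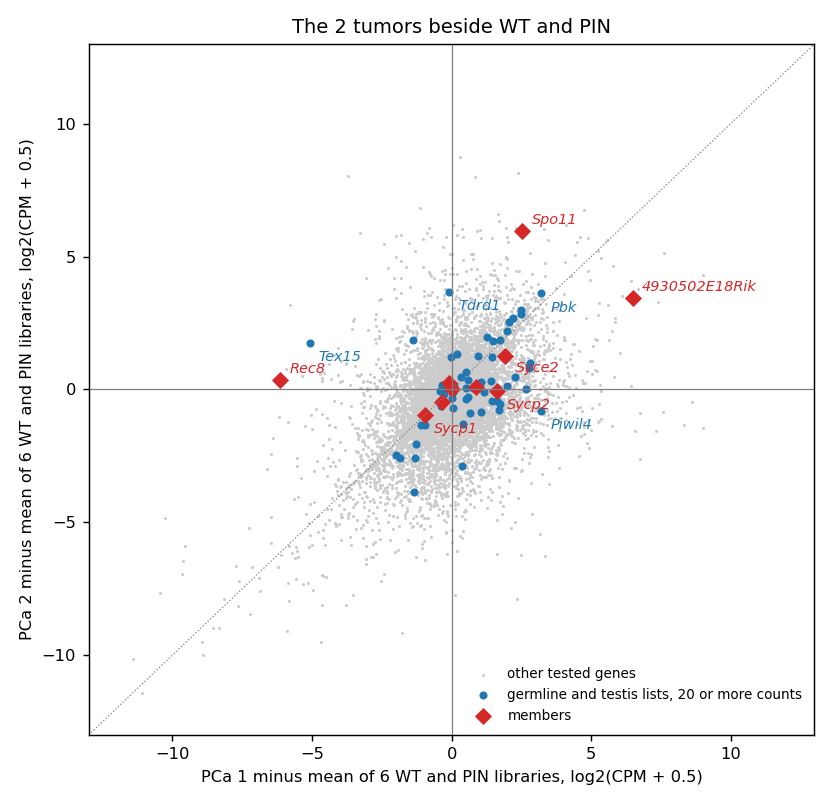
Each point is a gene, placed by its log2(CPM + 0.5) in PCa 1 (horizontal) and PCa 2 (vertical) minus the mean of the 6 WT and PIN libraries, with members as red diamonds, germ line and testis list genes with 20 or more counts in blue and other tested genes in grey; the dotted line marks equal change. Spo11 and Tdrd1 lie above the line, 4930502E18Rik and Piwil4 below it, and Rec8 and Tex15 far to the left, at -6.14 for Rec8.

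The other genes of meiosis and testis were taken from lists, and most had few reads or none. Of 154 genes with a row in 8 lists, 44 had no read in any library, 86, these included, had under 10 in each library, and 41 were tested. Against WT, 9 of the 41 were called higher in PCa and 0 lower, beside 4.35% higher and 4.18% lower over all tested genes, with a median log2 fold change of 0.92 against 0.01. Against PIN 7 were higher and 1 lower, beside 2.55% and 3.17%, with a median of 0.48 against 0.07. Between PIN and WT 0 were called, the median was 0.41 and 30 of 41 were positive, beside a median of -0.02 over all genes. The counts of calls depended on single libraries. Against WT, 5 were called without WT 1, without WT 3 or without PIN 3, and without PCa 1 12 were called higher and 3 lower. DESeq2 called 13 higher and 3 lower against WT, and 11 and 2 against PIN. Against PIN, 5 were called without WT 1, 2 without WT 3, 0 without PIN 1 or PIN 3 and 1 without PIN 2.

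The called genes against WT came from 4 of the 8 lists. Trip13, which remodels HORMA proteins in meiosis and in the mitotic checkpoint, was the one tested gene of the 10 other synaptonemal and axis genes. It was at 1.27 to 1.97 CPM in WT, 2.41 to 3.03 in PIN and 4.57 and 5.87 in PCa (log2 fold change against WT 1.68 ± 0.40, adjusted p = 0.0434, and against PIN 0.99 ± 0.40, adjusted p = 0.195, edgeR's quasi-likelihood F-test, Benjamini-Hochberg). Of 4 other meiotic cohesin and shugoshin genes, Rad21l and Meikin had no read, and both shugoshins, guardians of cohesin at centromeres, rose against WT. Sgol2 went from 0.987 to 1.10 CPM in WT to 12.5 and 16.0 in PCa (log2 fold change 3.79 ± 0.45, adjusted p = 0.00741 in edgeR), and Sgol1 to 8.22 and 10.4 CPM (2.21 ± 0.40, adjusted p = 0.0206 in edgeR). Against PIN, Sgol2 rose (2.46 ± 0.43, adjusted p = 0.0256 in edgeR), and Sgol1 missed the threshold (1.57 ± 0.40, adjusted p = 0.0599 in edgeR).

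In the recombination and crossover list, 13 of 27 genes were tested, and 2 rose against WT, Mnd1 among them, with a median log2 fold change of 1.09 over the list and 0.56 against PIN. Dmc1, the meiotic strand exchange protein, had 9 reads in PCa 1 and 4 in PCa 2 and was not tested. Mnd1, a cofactor of DMC1, was at 0.444 to 0.732 CPM in WT and 3.23 and 2.70 in PCa (log2 fold change 2.40 ± 0.51, adjusted p = 0.0314 in edgeR). Against PIN 2 rose, among them Ccdc155 (KASH5), which ties meiotic telomeres to dynein. Ccdc155 went from 0.036 to 0.138 CPM in PIN to 1.15 and 2.19 in PCa (4.25 ± 0.76). It passed the filter only through the PCa libraries, so this call is a description. In WT it was at 0.226 to 0.366 CPM, above every PIN library, and PCa against WT was not called (2.55 ± 0.70). Sun1, the nuclear envelope partner of KASH5 and the most highly read gene of the list, was at 88.8 to 109 CPM in WT and PIN and 76.0 and 99.1 in PCa.

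Few genes of the lists that mark germ cells and testis tissue had enough reads for a test. Of 32 regulators of meiotic entry and germ cells, 8 were tested and 0 called. Of the 8, 6 were positive against WT (median log2 fold change 0.46) and 3 against PIN (median -0.06). The summed level of this list was 115, 140 and 155 CPM in WT, 132 to 195 in PIN and 195 and 205 in PCa. Few genes carried this sum, and they differed between the tumors. Hspa2, a chaperone of spermatocytes that other tissues express too, was at 9.72 CPM in PCa 1 and 96.6 in PCa 2, against 16.4 to 31.7 elsewhere. Stra8, the switch into meiosis, had 1 read in PCa 1 and 0 in the other 7 libraries. Zbtb16, a factor of spermatogonial stem cells that other tissues express too, was at 67.9 to 147 CPM in WT and PIN and 147 and 79.4 in PCa. Of 24 haploid spermatid genes, 11 were at 0 in every library, among them the protamines Prm1, Prm2 and Prm3 and the transition proteins Tnp1 and Tnp2, and the sum of the list was 48.5 to 81.5 CPM in WT and PIN and 76.1 and 62.0 in PCa. Odf2, which is also a centrosome protein, supplied most of it, at 60.9 and 55.0 CPM in PCa. Acrv1, of the sperm acrosome, fell against PIN, from 3.72 to 10.6 CPM to 1.22 and 0.546 (log2 fold change -2.84 ± 0.65, adjusted p = 0.0485 in edgeR). Of 12 genes of testis somatic cells, 4 were tested, 0 were called, and the sum was 6.84 to 12.5 CPM in WT and PIN and 6.05 and 3.86 in PCa. Wt1, the most highly read of them, was at 5.18 to 8.85 CPM in WT and PIN, 2.37 in PCa 1 and 0 reads in PCa 2.

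Among 39 cancer-testis family genes, the class of 4930502E18Rik, 20 had no read in any library, including every Magea gene on the list and Prame. Of the 8 tested, 4 rose against WT (Pbk, Cep55, Kif2c and Ttk), and the median was 2.41 on the log2 scale. All 4 have roles in cell division, and none is silent in WT. Pbk, a mitotic kinase, went from 0.815 to 1.43 CPM in WT to 18.1 and 24.0 in PCa (4.34 ± 0.54, adjusted p = 0.00791 in edgeR), and Cep55, which acts where daughter cells separate, from 0.498 to 0.889 CPM to 8.48 and 12.2 (3.87 ± 0.48, adjusted p = 0.00816 in edgeR). Against PIN 4 rose, Pbk, Cep55, Kif2c and Dkkl1. Dkkl1, a sperm acrosome protein, was at 3.67 to 7.61 CPM in WT, 0.866 to 2.20 in PIN and 26.6 and 7.31 in PCa (3.58 against PIN, adjusted p = 0.0300 in edgeR), so that its PCa 2 value lay inside the WT range.

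**Figure D5:**
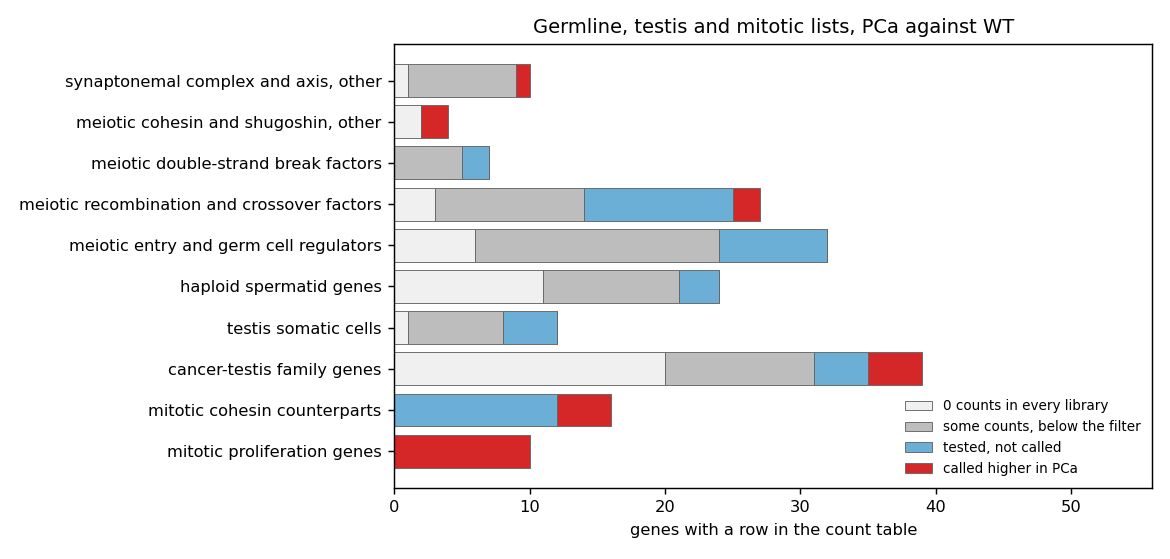
Bars give the number of genes of each list with a row in the table, split into genes with 0 counts in every library, genes below the filter, genes tested and not called, and genes called higher in PCa against WT. Most germ line and testis lists are grey, and all 10 mitotic proliferation genes are red.

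Genes of cell division moved with the same samples. All 10 mitotic proliferation genes rose in PCa against WT and 9 of 10 against PIN, and their summed level was 62.7 to 139 CPM in WT and PIN and 691 and 682 in PCa 1 and PCa 2. Mki67, the proliferation marker, was at 16.1 to 20.3 CPM in WT and at 221 and 304 in PCa (log2 fold change 3.85 ± 0.40, adjusted p = 0.00602 in edgeR). Of 16 genes of mitotic cohesin and its loading and release, 4 rose against WT, with a median of 0.43. These were Esco2, which acetylates cohesin in S phase (4.28 ± 0.68, adjusted p = 0.0134 in edgeR), Cdca5, which protects it (2.84 ± 0.52, adjusted p = 0.021 in edgeR), Espl1, the separase that opens it (2.79 ± 0.54, adjusted p = 0.0247 in edgeR), and Rad21 (1.16 ± 0.24, adjusted p = 0.0288 in edgeR). The part of proliferation in the members' levels was not tested. Within the sum, Aurka was 12.3-fold higher in PCa 1 than in PCa 2, while the other 9 genes differed at most 1.43-fold between the tumors.

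The 20 known repressors of germ line genes were all read and tested, and 3 rose against WT and 0 fell, beside 4.35% and 4.18% of all tested genes, with a median of 0.31 over the list and 0.33 against PIN. Hells, a chromatin remodeller needed for DNA methylation, went from 1.93 to 7.68 CPM in WT to 24.7 and 44.1 in PCa (3.12 ± 0.63, adjusted p = 0.0271 in edgeR). Uhrf1, which guides the maintenance methyltransferase, went from 3.53 to 9.58 CPM to 37.0 and 40.2 (2.68 ± 0.44, adjusted p = 0.0149 in edgeR), and Dnmt1, that methyltransferase, from 41.3 to 58.3 CPM to 104 and 151 (1.43 ± 0.24, adjusted p = 0.0163 in edgeR). Uhrf1 and Dnmt1 also rose against PIN. Of the factors that give the repressor complex its DNA binding, E2f6 was at 24.3 to 38.0 CPM in WT and PIN, 13.8 in PCa 1 and 39.0 in PCa 2. Mga was at 96.4 to 156 CPM in WT and PIN, 84.8 in PCa 1 and 274 in PCa 2, and Max at 78.6 to 156 CPM, 58.3 and 141. All 3 lay below every WT and PIN library in PCa 1, as 27.8% of tested genes did, and E2f6 and Mga lay above every one in PCa 2, as 27.7% did, with log2 fold changes in PCa against WT of -0.14, 0.59 and -0.13 for E2f6, Mga and Max. Over the whole list of 20, 4 lay below and 8 above in PCa 1, and 2 lay below and 11 above in PCa 2. The part of these 3 in the members' levels was not tested. Trim28, a corepressor and the most highly read of the list, was at 131 to 161 CPM in WT and PIN and 147 and 181 in PCa.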

How the data were processed

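Ribosomal RNA was removed from the RNA of 3 WT, 3 PIN and 2 PCa mouse prostate samples, and libraries were read from both ends. The authors trimmed adapters with cutadapt 1.9.1, aligned reads to mm9 with HISAT2 2.1.0 and counted them per gene with HTSeq 0.6.1, and the deposited values are these raw counts. A further deposited column, the exon length of each gene, is another kind of value and served here for TPM.

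Tests used edgeR 4.0.16 under R 4.3.3. Genes above 1 CPM in at least 2 libraries were kept, library sizes were adjusted by TMM, and all 8 libraries were fitted in 1 model of 3 groups (quasi-likelihood F-test, 5 residual degrees of freedom, common biological coefficient of variation 0.489). Benjamini-Hochberg adjustment ran over all 14034 tested genes, and a call needed an adjusted p under 0.05 with a log2 fold change beyond 1 in either direction. Steps were tested on simulated data with less spread between libraries than here, which does not give their power in these data. Total counts were 21751803 to 29730420 per library, and the precision of the tests rests on the spread between the 2 or 3 libraries of a group. DESeq2 1.42.0 was one of the alternatives given below.

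All members are named, and from each list up to 4 genes with the largest change among those called in PCa, the one with the highest mean CPM, and, chosen after their values were seen, genes that differed between the tumors, E2f6, Mga and Max, and genes that stand beside a member in its role. The members and lists were chosen with earlier results of these data known. A gene of the recombination list and the identity of the transgene are not reported here. Of the list names, Ankrd31, Rhox5, Sage1 and Ddx53 were not analysed here, and 2 aliases that RefSeq gives to other genes were replaced. Positions are mm9 as in the table, and promoters are RefSeq's for GRCm38.p6.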

Additional observations from a re-analysis of the deposited data

How the results depend on the processing

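Of the settings tried, upper-quartile and DESeq2 size-factor normalization, no filter and filterByExpr kept the called members at 2 in both PCa comparisons. DESeq2 called 3 members, adding Syce2, and 39, 2487 and 1984 genes (PIN against WT, PCa against WT, PCa against PIN; 0, 1198 and 803 in edgeR) and 16 and 13 list genes, 3 and 2 of them lower (9 and 8 in edgeR, 0 and 1 lower). With only the 2 groups compared, 130 and 388 genes, 0 and 1 members and 3 and 2 list genes were called in PCa against WT and against PIN. With a replicate block, 413 and 151 genes, 1 and 0 members and 5 and 0 list genes were called. The labels do not say that a number marks a shared animal or batch, and same-numbered libraries had a mean correlation of deviations of 0.099 (-0.056 to 0.284), against -0.05 for differently numbered ones (-0.284 to 0.164), and not every library was closest to its own number.

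Leaving out each library in turn gave 347 to 2477 genes, 0 to 2 members and 5 to 15 list genes in PCa against WT, and 78 to 2251, 0 to 2 and 0 to 12 against PIN. A lone PCa library was then assumed to vary like the other groups. Signs turned for Syce2 in PIN against WT (-0.08 without WT 1, -0.04 without PIN 3), for Rec8 and Spo11 in PIN against WT (-0.08 and -0.21 without PIN 2), and for Rec8 without PCa 1 (0.48 against WT, 0.27 against PIN). Over the libraries left out, the log2 fold change in PIN against WT ran to 0.59 for Syce2, 0.49 for Rec8 and 2.58 for Spo11, and that of Rec8 in PCa down to -8.00 against WT and -8.21 against PIN. The cause of these changes was not tested. The log2 fold changes of 4930502E18Rik and Spo11 against WT ran from 11.64 to 13.64 and from 6.41 to 8.92 where both tumors were in the fit. Both pass the filter through PCa, and no read in WT can turn the sign of the first, so this says nothing about stability.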
